A study of Mus musculus with 17 samples.

Results

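Vascular endothelial growth factor (VEGF) and angiopoietin genes were examined in cultured mouse follicles exposed to an inhibitor of the epidermal growth factor receptor (EGFR). The group was defined by gene symbol and holds 10 of the 25198 rows of the count table: 6 ligands (Vegfa, Vegfb, Vegfc, Pgf, Angpt1 and Angpt2) and 4 receptors or co-receptors (Kdr, Flt1, Nrp1 and Nrp2). All 10 symbols were found, and 6 of the 10 were among the 9603 genes that passed the filter on low counts. Those 6 are Vegfa, Vegfc, Angpt2, Kdr, Nrp1 and Nrp2. Vegfb, Pgf, Angpt1 and Flt1 did not pass it.

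Antral follicles of CD1 mice, an outbred strain, came from animals 16 days old and had grown for 8 days in eIVFG, an encapsulated culture. Per the labels, 3 follicles were pooled in each sample. The Tyrphostin group had 6 libraries and received Tyrphostin-AG1478, a small-molecule inhibitor of the EGFR kinase, at 10 µM in DMSO, with human chorionic gonadotropin (hCG) as the ovulatory stimulus, over 4 h. The Control group had 11 libraries, whose names fall into 5 sets by their first number. Because 1 treatment text is attached to all samples, the labels do not say if the Control follicles were given hCG or DMSO. Batch 1 held Control 1 to 6 and Tyrphostin 1 to 3, and batch 2 held Control 7 to 11 and Tyrphostin 4 to 6. Whether the libraries of a group came from separate animals or cultures is not stated, so p-values measure the spread between these libraries, which may be technical. A cultured follicle is also a limited model of vessels, since it is grown apart from the ovary and its blood supply.

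In the ovary, VEGF-A made by granulosa and theca cells is a main signal for the vessels that surround the follicle and later invade the corpus luteum. Its receptor VEGFR2 (Kdr) carries most of the signal in endothelial cells, whereas VEGFR1 (Flt1) binds VEGF-A, VEGF-B and placental growth factor tightly and can act as a decoy. Neuropilins (Nrp1, Nrp2) are co-receptors that bind VEGFs and also class 3 semaphorins, and angiopoietins act through the receptor Tie2 (Tek), where Angpt1 stabilises vessels and Angpt2 usually opposes it. Gonadotropins are known to raise Vegfa in granulosa cells, and EGF-like factors relay the ovulatory stimulus through EGFR.

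The stretches just upstream of the gene starts are shown for 4 members, chosen because they include the main ligand, its signalling receptor, the decoy receptor and the neuropilin with the lowest unadjusted p. They come from the RefSeq promoter table of GRCm38.p6, in which 8 of the 10 members were matched. They are printed 5′ to 3′ on the strand of the gene and end before the first annotated base of the gene. The Vegfa stretch is chr17:46032378-46032627 (minus strand), the Kdr stretch chr5:75978459-75978705 (minus strand), the Flt1 stretch chr5:147726012-147726261 (minus strand) and the Nrp2 stretch chr1:62703067-62703284 (plus strand). Capitals mark matches on either strand to the Sp1 box GGGCGG and to the cAMP response element TGACGTCA.
Vegfa: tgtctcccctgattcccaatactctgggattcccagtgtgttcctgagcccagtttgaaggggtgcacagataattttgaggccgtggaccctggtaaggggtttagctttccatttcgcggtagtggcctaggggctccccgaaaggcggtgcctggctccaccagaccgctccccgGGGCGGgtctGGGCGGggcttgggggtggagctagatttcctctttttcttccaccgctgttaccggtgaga
Kdr: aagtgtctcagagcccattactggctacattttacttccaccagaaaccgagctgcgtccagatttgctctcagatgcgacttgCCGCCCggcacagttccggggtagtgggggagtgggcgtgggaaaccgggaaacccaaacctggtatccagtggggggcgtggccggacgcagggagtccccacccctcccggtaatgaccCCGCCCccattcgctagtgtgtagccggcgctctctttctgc
Flt1: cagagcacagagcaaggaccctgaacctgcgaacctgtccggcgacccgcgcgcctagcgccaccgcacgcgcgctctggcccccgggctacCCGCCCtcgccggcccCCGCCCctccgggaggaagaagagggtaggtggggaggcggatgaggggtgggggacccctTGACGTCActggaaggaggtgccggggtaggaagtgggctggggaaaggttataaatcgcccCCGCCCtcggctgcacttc
Nrp2: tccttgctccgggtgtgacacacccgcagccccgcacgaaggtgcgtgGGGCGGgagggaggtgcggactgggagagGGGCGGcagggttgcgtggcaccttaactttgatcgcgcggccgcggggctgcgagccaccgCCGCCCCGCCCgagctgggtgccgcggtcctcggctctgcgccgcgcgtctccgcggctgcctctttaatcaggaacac

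Motifs were searched on both strands in the 250 bases before each RefSeq start. For Pgf (chr12:85177314-85177563) and Nrp1 (chr8:128358823-128359072) these bases lie wholly inside the annotated gene, and for Kdr and Nrp2 in part. GGGCGG was present in 8 of 8 members, against 33.0% of the 27026 promoters in the table. In Nrp2, 2 of its matches overlap each other. The full TGACGTCA was present in Flt1 only (1 of 8), against 1.6% of promoters. The hypoxia response core ACGTG (16.5% of promoters) and the AP-1 letters TGANTCA (6.9%) were present in 0 of 8. These are letter matches in a short window and say nothing about whether a factor bound there.

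The 10 genes were expressed at low levels in these follicles. Levels are given as CPM, the count scaled to a common library total after TMM scaling. Over the 17 libraries the counts summed to 1058 for Nrp1, 531 for Nrp2, 380 for Angpt2, 280 for Kdr, 262 for Vegfa, 250 for Vegfc, 147 for Flt1, 66 each for Vegfb and Pgf, and 14 for Angpt1. Library totals ran from 1820545 to 8291024 counts, so that 3 counts corresponded to between 0.336 and 1.64 CPM. That value is also the limit that a count of 0 allows, for counting error only. Within a group and batch, the spread of Nrp1 counts was 15.7 times the variance that counting alone gives, that of Nrp2 was 4.77 times, and the remaining members lay between 1.96 and 3.33 times.

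Per kilobase of annotated exon, Nrp1 stood highest among the members in Control follicles, at 4.34 ± 1.87 CPM per kb (SD, n = 11). Angpt2 was next at 1.48 ± 0.779 CPM per kb, and Nrp1 exceeded it in 11 of 11 Control libraries. The members then followed in the order Vegfc (1.39 ± 0.628 CPM per kb), Vegfa (1.16 ± 0.453), Nrp2 (0.750 ± 0.235), Kdr (0.672 ± 0.191), Vegfb (0.541 ± 0.635) and Pgf (0.514 ± 0.452). From Angpt2 down to Pgf, no neighbour in this order was higher than the next in more than 8 of 11 Control libraries, so those steps do not exceed the spread. Flt1, at 0.187 ± 0.0852 CPM per kb, was above Angpt1 (0.0158 ± 0.0322) in 11 of 11 libraries. In Tyrphostin follicles Nrp1 was again first (2.67 ± 2.68 CPM per kb, n = 6), but it exceeded Angpt2 in 4 of 6 libraries. The mean of Vegfb stood above that of Vegfa there, by 0.150 ± 0.474 CPM per kb (SD). Vegfb was higher in 4 of 6 libraries, so this step does not exceed the spread.

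**Figure D1:**
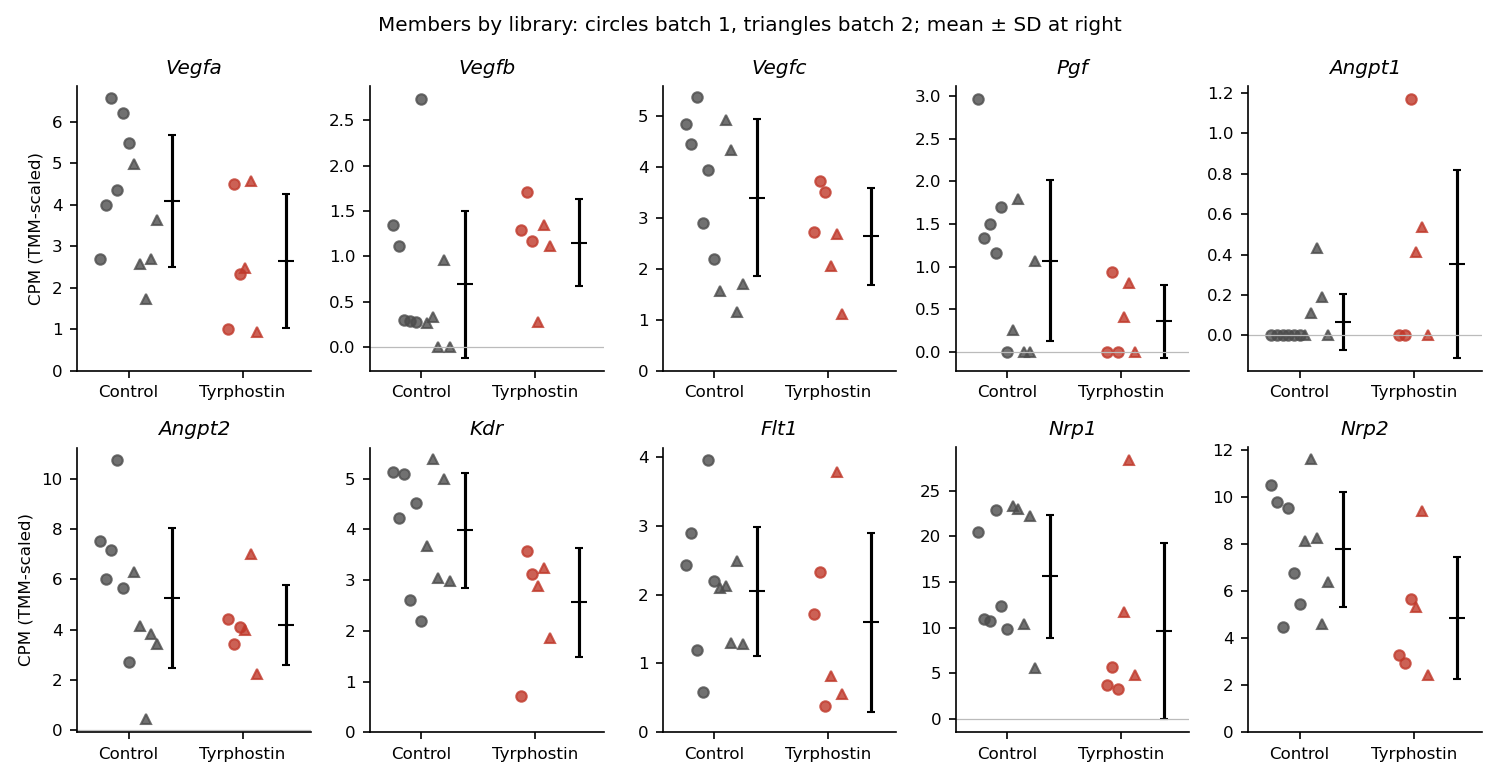
Level of each of the 10 members in every library, as TMM-scaled CPM (linear axes that differ between panels), in Control (grey, n = 11) and Tyrphostin (red, n = 6). Circles are batch 1, triangles batch 2, and the bar at the right of each group is the mean ± SD. The groups overlap in all 10 panels, and Tyrphostin 5 stands at 28.3 CPM in the Nrp1 panel, above the 11 Control libraries.

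The comparison of Tyrphostin with Control libraries, with batch as a term, asked whether these genes change when EGFR signalling is inhibited. None of the 6 members tested passed an adjusted p of 0.05 (edgeR quasi-likelihood test, Benjamini-Hochberg adjustment over all genes tested), whereas 1018 of 9603 genes did (10.6%). At an unadjusted p under 0.05, 3 of the 6 (Kdr, Nrp1 and Nrp2) were lower, against 12.8% of all genes tested that were lower at that threshold. DESeq2 also called 0 of 6, with 3 at an unadjusted p under 0.05. All 6 had a negative log2 fold change, with a median of -0.64, beside 49.98% negative values and a median of 0.00 over all genes tested. Passing the filter depends on the counts themselves, so this direction describes 6 genes and is no test. In 0 of the 10 members did the 6 Tyrphostin and 11 Control values separate completely, as they did for 1.51% of the genes tested. In such bulk samples, fewer cells of a type and less RNA per cell cannot be told apart.

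Vegfa (chr17:46016993-46032369, minus strand, GRCm38) encodes the main angiogenic ligand of the follicle. It ranged from 1.74 through a median of 4.00 to 6.58 CPM in Control libraries. In Tyrphostin libraries it ranged from 0.933 through 2.41 to 4.58 CPM. Tyrphostin 1 and 6 lay below every Control library, and the other 4 lay within the Control range. The log2 fold change was -0.60 ± 0.35 (SE, 95% interval -1.33 to 0.13), with an edgeR adjusted p of 0.321. The interval therefore includes both a fall of more than 1 log2 unit and no change.

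Vegfc (chr8:54077606-54187096, plus strand), a ligand best known for lymphatic vessels, ranged from 1.15 through a median of 3.95 to 5.38 CPM in Control. Its Tyrphostin values ranged from 1.12 through 2.71 to 3.73 CPM, and only Tyrphostin 6 lay below all Control libraries. Its log2 fold change was -0.38 ± 0.33 (SE), with an edgeR adjusted p of 0.530. Vegfb (chr19:6982473-6987651, minus strand), a ligand of Flt1, had between 0 and 11 counts in a library, with 0 in 2 Control libraries. Its level ranged from 0 through 0.299 to 2.74 CPM in Control and from 0.274 through 1.23 to 1.71 CPM in Tyrphostin. The fit without a filter on low counts gave 0.92 ± 0.62 on the log2 scale (SE, 95% interval -0.30 to 2.14, edgeR adjusted p = 0.477). In that fit 4.28% of 21622 genes were called.

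Pgf (chr12:85166635-85177790, minus strand), which encodes placental growth factor, was at 0 in 3 Control and 3 Tyrphostin libraries. Its Control values ranged from 0 through a median of 1.16 to 2.97 CPM and its Tyrphostin values from 0 through 0.206 to 0.932 CPM. The groups overlapped, and the fit without a filter gave -1.52 ± 0.73 (SE) on the log2 scale with an edgeR adjusted p of 0.283. This rests on 54 counts in Control and 12 in Tyrphostin.

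Angpt2 (chr8:18690263-18741562, minus strand), the context-dependent antagonist of Angpt1, was the ligand with the most counts. Its Control values ran from 0.434 CPM, a single count in Control 9, through a median of 5.64 to 10.7 CPM. Its Tyrphostin values ran from 2.24 through 4.04 to 7.01 CPM, and all 6 lay inside the Control range. The log2 fold change was -0.30 ± 0.34 (SE, 95% interval -0.99 to 0.40), with an edgeR adjusted p of 0.654. Angpt1 (chr15:42424723-42676977, minus strand), the stabilising Tie2 ligand, had 3 counts over the 11 Control libraries and 11 counts over the 6 Tyrphostin libraries. It was at 0 in 8 Control and 3 Tyrphostin libraries, and its highest value was 1.17 CPM in Tyrphostin 3. Without a filter on low counts its edgeR adjusted p was 0.268, and these counts do not settle a direction.

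Kdr (chr5:75932827-75978458, minus strand) encodes VEGFR2, the receptor that carries most VEGF-A signalling in endothelium. It ranged from 2.19 through a median of 4.23 to 5.38 CPM in Control. In Tyrphostin it ranged from 0.717 through 3.00 to 3.57 CPM. Tyrphostin 1 and 6 lay below every Control library. The log2 fold change was -0.67 ± 0.31 (SE, 95% interval -1.31 to -0.04), with an unadjusted p of 0.0392 and an edgeR adjusted p of 0.183. Flt1 (chr5:147561604-147726011, minus strand), which encodes VEGFR1, ranged from 0.580 through 2.13 to 3.95 CPM in Control and from 0.390 through 1.27 to 3.77 CPM in Tyrphostin. Tyrphostin 3 and 6 lay below all Control libraries, while Tyrphostin 5 lay near the top of their range. Without a filter the Flt1 value was -0.37 ± 0.45 (SE) on the log2 scale, and its edgeR adjusted p was 0.722.

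Nrp1 (chr8:128358604-128503363, plus strand), a co-receptor of VEGF-A and of Sema3a, had the most counts and the widest spread. Its Control values ranged from 5.55 through a median of 12.4 to 23.4 CPM. In Tyrphostin 1 to 6 the levels were 3.73, 5.75, 3.32, 11.7, 28.3 and 4.85 CPM. Tyrphostin 1, 3 and 6 were below every Control library and Tyrphostin 5 was above every one. The log2 fold change was -0.93 ± 0.40 (SE, 95% interval -1.76 to -0.09), with an unadjusted p of 0.0313 and an edgeR adjusted p of 0.160. Without Tyrphostin 5 it was -1.42 ± 0.34 (SE), with an edgeR adjusted p of 0.00822. The call on Nrp1 therefore depends on that library.

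Nrp2 (chr1:62703285-62818695, plus strand), a co-receptor of VEGF-C and of several semaphorins, ranged from 4.48 through a median of 8.14 to 11.7 CPM in Control. Its levels in Tyrphostin 1 to 6 were 3.30, 2.95, 5.66, 5.35, 9.43 and 2.42 CPM. Tyrphostin 1, 2 and 6 were below every Control library, and Tyrphostin 5 was again the highest of its group, here inside the Control range. The log2 fold change was -0.74 ± 0.29 (SE, 95% interval -1.33 to -0.15), with an unadjusted p of 0.0168 and an edgeR adjusted p of 0.107. Leaving out Tyrphostin 5 gave -0.99 ± 0.28 (SE), with an edgeR adjusted p of 0.0293. No other member tested was called without that library.

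**Figure D2:**
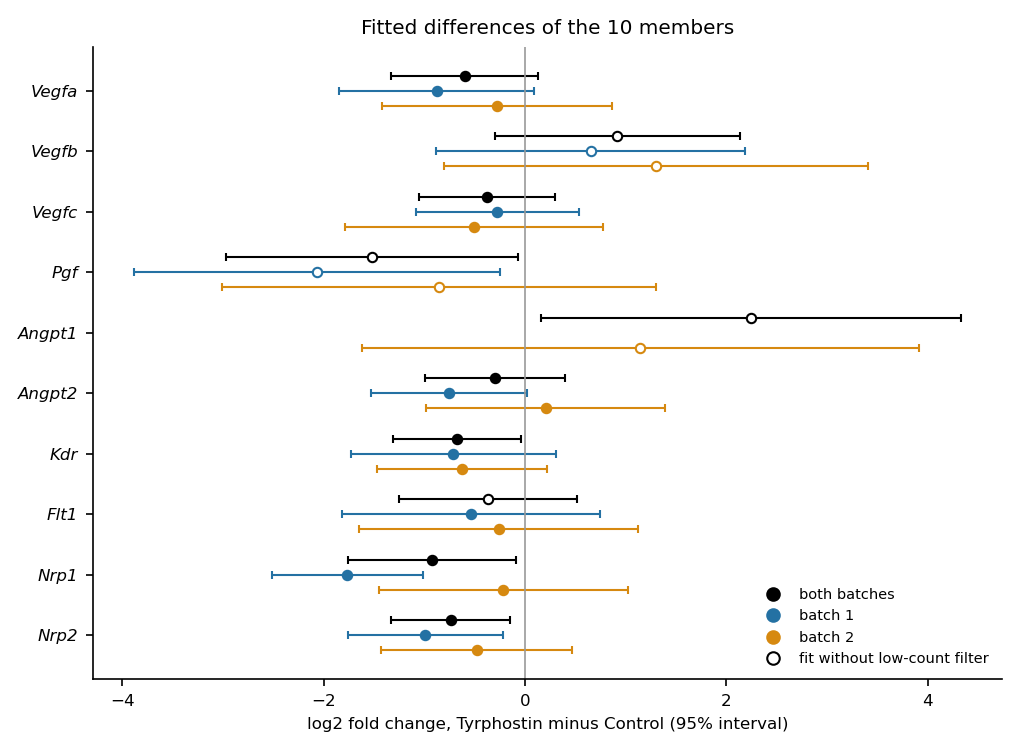
Fitted log2 fold changes (Tyrphostin minus Control) of the 10 members with 95% intervals, over both batches (black), in batch 1 (blue) and in batch 2 (orange). Open symbols come from the fit without a filter on low counts, and Angpt1 has no batch 1 value because its Control libraries there were all at 0. The interval of Nrp1 lies below 0 in batch 1 (-2.52 to -1.01) and spans 0 in batch 2.

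The batches were then fitted separately, because each holds both groups. In batch 1, 7 members passed the filter and 1, Nrp1, was called (634 of 9423 genes, 6.73%). Its levels were 3.32 to 5.75 CPM in the 3 Tyrphostin libraries and 9.85 to 22.9 CPM in the 6 Control libraries of batch 1. It fell by 1.77 ± 0.36 (SE, n = 3 and 6) on the log2 scale (95% interval -2.52 to -1.01, edgeR adjusted p = 0.0051). The other 6 members had negative values in batch 1, from -0.27 for Vegfc to -0.99 for Nrp2, with edgeR adjusted p-values from 0.118 to 0.748.

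In batch 2 no member was called among 7 tested (61 of 9830 genes, 0.621%). None reached an unadjusted p under 0.05 there, and DESeq2 called 0. The Nrp1 levels of batch 2 were 11.7, 28.3 and 4.85 CPM in Tyrphostin and 5.55 to 23.4 CPM in Control, which gave -0.22 ± 0.56 (SE) on the log2 scale with an edgeR adjusted p of 0.938. Without Tyrphostin 5, the batch 2 values were -1.04 for Nrp1 (edgeR adjusted p = 0.726) and -0.996 for Nrp2 (0.650). Angpt2 was the 1 tested member with a positive value in batch 2, at 0.21 ± 0.54 (SE, edgeR adjusted p = 0.938).

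A test of the difference between batches (treatment by batch interaction) called 0 of 9603 genes (0%), with 342 at an unadjusted p under 0.05, and DESeq2 called 0. Of the 6 members tested, Nrp1 alone had an unadjusted p under 0.05: its term was 1.55 ± 0.69 (SE, p = 0.0367, edgeR adjusted p = 0.9997). Without Tyrphostin 5 the unadjusted p of that term was 0.254. A difference between batches in the response of Nrp1 was thus not established.

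The members were also compared between the batches among the 11 Control libraries, where 1004 of 9128 genes were called (11%). None of the 6 members tested was called by edgeR, and none had an unadjusted p under 0.05. DESeq2 called 0 of the 6, with 1 at an unadjusted p under 0.05. Batch 2 minus batch 1 was -0.83 ± 0.40 (SE) for Angpt2, -0.61 ± 0.35 for Vegfa and -0.54 ± 0.42 for Vegfc on the log2 scale, with edgeR adjusted p-values from 0.207 to 0.460. The receptors Kdr, Nrp1 and Nrp2 had values between 0.01 and 0.23. For these 3 ligands the distance between Control batches was as large as the fitted treatment difference or larger.

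Markers of other cells were read beside the neuropilins, since endothelial, stromal and immune cells can all express them. The summed level of 18 endothelial markers ran from 13.0 through a median of 36.2 to 115 CPM in Control and from 16.6 through 32.1 to 58.7 CPM in Tyrphostin. Of these markers, 4 of 18 passed the filter and none was called. Plvap had 13 counts in all, Erg 17 and Tek, the angiopoietin receptor, 31, with 0 counts in 9, 11 and 4 of the 17 libraries. Cdh5 had the most, 1517 counts. Its log2 fold change was -0.69 ± 0.42 (SE, edgeR adjusted p = 0.345). The other tested markers were Esam at -0.12, Clec14a at 0.35 and Eng at 0.55, and the median of the 4 was 0.12.

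Theca and stroma markers stood higher in some of the batch 2 libraries. Among the Control libraries, 3 of 9 tested were called higher in batch 2 and 0 lower (median 1.32 on the log2 scale), beside 11% of all genes called. Without Cyp11a1, which granulosa cells also express, the other 11 markers of the list summed to between 258 and 2157 CPM in Control (median 491) and between 273 and 3047 CPM in Tyrphostin (median 595). Tyrphostin 5 was highest at 3047 CPM, followed by Control 7 at 2157 and Control 8 at 2010 CPM. Of these 11 markers Col3a1 held by far the most counts, 39756 over the 17 libraries. Cyp17a1 followed with 14393 and Dcn with 7688. Tyrphostin 5 also had the highest sum of the 8 immune markers, 855 CPM, against a median of 48.1 in its group. That sum is mostly 1 gene, Lyz2, which held 9898 counts over the 17 libraries. Csf1r, the next of the list, held 1110, and Itgam held 0. None of the 9 theca and stroma markers and neither of the immune markers that passed the filter was called in the treatment comparison. In batch 1, where Nrp1 fell, 7 of the 9 theca and stroma markers had negative values (median -0.81). Of the 9, 2 were called lower, beside 6.73% of all genes called in either direction in that batch. They were the collagen genes Col1a1 (-1.20, edgeR adjusted p = 0.0270) and Col1a2 (-1.28, 0.0442). Cyp17a1, the androgen-synthesis enzyme of theca cells, had a value of 1.27 there (adjusted p = 0.207). In batch 2, 1 of the 9 values was negative (median 0.41), with 1.11 for Col1a1 and 0.88 for Col1a2, and none was called. The interaction terms of these 2 collagen genes had unadjusted p-values of 0.00225 and 0.0131 and were not called after adjustment. The part of stromal RNA in the Nrp1 and Nrp2 values was not tested.

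**Figure D3:**
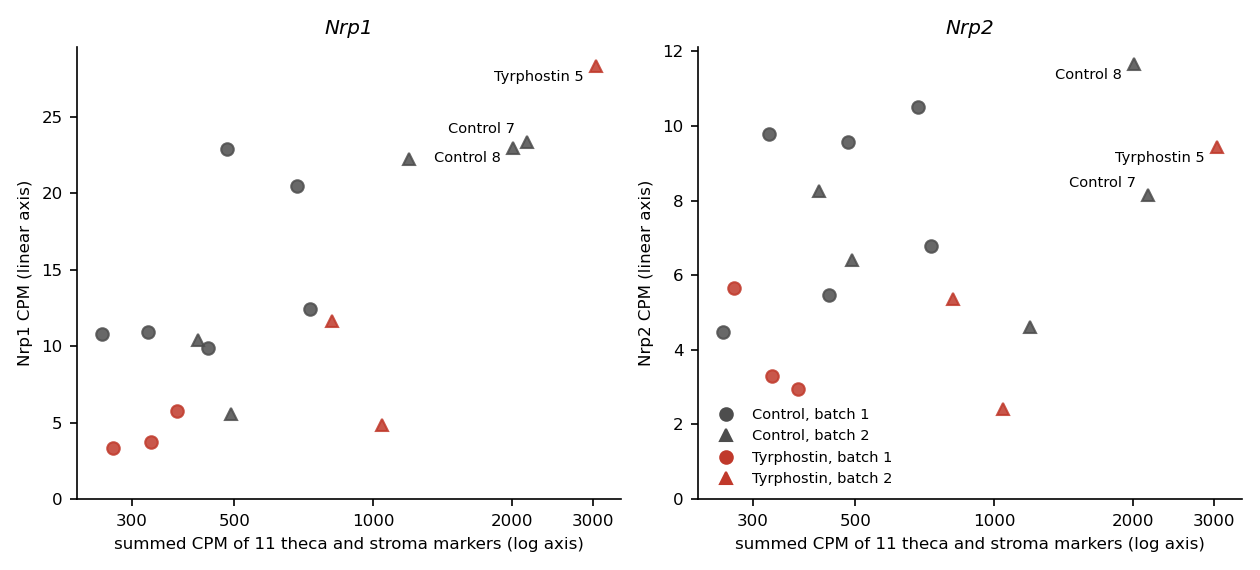
CPM of Nrp1 (left) and Nrp2 (right, linear axes) against the summed CPM of 11 theca and stroma markers (log axis) in each of the 17 libraries. Symbols give group and batch, and Col3a1 held by far the most counts of the 11 markers. Tyrphostin 5 is farthest right at 3047 CPM and has the highest Nrp1 level (28.3 CPM), and the 3 Tyrphostin libraries of batch 1 lie low on both axes of the Nrp1 panel.

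Beside the members, 6 further VEGF and angiopoietin genes were listed: Vegfd, Flt4, Tek, Tie1, Angpt4 and Ptprb. Only Flt4, the receptor of VEGF-C, passed the filter. It ranged from 0.434 through a median of 2.99 to 5.94 CPM in Control and from 1.76 through 2.81 to 5.28 CPM in Tyrphostin. Its log2 fold change was 0.12 ± 0.39 (SE, edgeR adjusted p = 0.898), so 0 of 1 was called. Tek, the receptor of both angiopoietins, had 9 counts over the 11 Control libraries and 22 over the 6 Tyrphostin libraries and did not pass the filter.

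Neuropilins also bind class 3 semaphorins, which act on vessels as well as on axons. Of 12 class 3 semaphorins and plexins, 10 passed the filter, 4 fell and none rose, with a median log2 fold change of -0.15. Over all genes tested, 6.25% were called lower. Sema3d and Sema3e passed the filter on their Control counts. Their median counts were 10 and 12 in Control and 3 and 2.5 in Tyrphostin. The direction of these genes is therefore no test. A single gene was called higher without Tyrphostin 2, without Tyrphostin 5, and without Control 7 and Tyrphostin 5 together. In batch 1 alone 2 genes were lower and 1 was higher. The 4 that fell over both batches were the ligands Sema3a, Sema3d and Sema3e and the plexin Plxna2, which pairs with neuropilins as the signalling receptor for class 3 semaphorins.

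Sema3a, a ligand of Nrp1, ranged from 8.07 through a median of 12.5 to 40.1 CPM in Control and from 3.30 through 4.29 to 5.39 CPM in Tyrphostin. All 6 Tyrphostin libraries lay below all 11 Control libraries. Sema3a fell by 1.88 ± 0.27 (SE) on the log2 scale (edgeR adjusted p = 6.09e-05), with -1.70 in batch 1 (adjusted p = 0.00204) and -2.05 in batch 2 (adjusted p = 0.0832).

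Sema3e, which signals mainly through Plxnd1, ranged from 0.640 through 4.23 to 5.75 CPM in Control and from 0.187 through 0.448 to 2.16 CPM in Tyrphostin. In 4 of 6 Tyrphostin libraries it was below every Control library, and it fell by 2.44 ± 0.52 (SE) on the log2 scale (edgeR adjusted p = 0.00294). Its value was -3.15 in batch 1 (edgeR adjusted p = 0.00544) and -1.86 in batch 2 (0.404). Sema3d ranged from 1.13 through 2.49 to 5.47 CPM in Control and from 0 through 0.544 to 1.95 CPM in Tyrphostin. It fell by 2.10 ± 0.49 (SE) on the log2 scale (edgeR adjusted p = 0.0064) and lay below every Control library in 5 of 6 Tyrphostin libraries. In batch 1 alone its value was -1.73 (edgeR adjusted p = 0.126), and in batch 2 it did not pass the filter. With 1 library left out, Sema3d passed the filter in 11 of 17 fits and was called in those 11.

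Plxna2 ranged from 6.04 through 9.79 to 17.5 CPM in Control and from 2.61 through 5.40 to 11.1 CPM in Tyrphostin. It fell by 0.88 ± 0.25 (SE) on the log2 scale (edgeR adjusted p = 0.0251). That call was lost on leaving out Tyrphostin 1 (edgeR adjusted p = 0.0722), Tyrphostin 2 (0.0775) or Tyrphostin 6 (0.0737), and when the Control libraries were summed by set (0.0712). The remaining tested genes of the list (Plxnd1, Sema3c, Plxna1, Sema3b, Plxna3 and Sema3g) had log2 fold changes from -0.17 to 0.82 and were not called over both batches. Sema3g, another class 3 semaphorin, went the other way: its value was 0.82 ± 0.30 (SE, edgeR adjusted p = 0.0846) over both batches. In batch 1 it was higher in Tyrphostin, at 1.46 (adjusted p = 0.0149), and in batch 2 its value was 0.09 (adjusted p = 0.957).

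Hypoxia factors and their targets were listed because Vegfa is a classical target of HIF-1. Of 23 genes 19 passed the filter, 2 fell and none rose, beside 6.25% called lower over all genes tested, so the count of 2 in 19 is close to that background. The median log2 fold change was -0.26. Hif1a, the oxygen-regulated subunit of HIF-1, ranged from 711 through a median of 984 to 2010 CPM in Control and from 421 through 571 to 679 CPM in Tyrphostin, with no overlap. Hif1a mRNA fell by 0.98 ± 0.17 (SE) on the log2 scale (edgeR adjusted p = 0.000563). Slc2a1, the glucose transporter GLUT1, ranged from 1186 through 1894 to 4156 CPM in Control and from 203 through 657 to 1333 CPM in Tyrphostin. Slc2a1 fell by 1.49 ± 0.39 (SE) on the log2 scale (edgeR adjusted p = 0.0179), a call that was lost without Tyrphostin 2 (edgeR adjusted p = 0.0562) and with the Control libraries summed by set (0.134). Other classical targets were not called, among them Ldha (-0.31), Pgk1 (-0.54) and Pdk1 (-0.26, edgeR adjusted p-values from 0.403 to 0.814).

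Among 38 other angiogenic and antiangiogenic factors, 23 passed the filter, 3 fell and none rose (median log2 fold change -0.14), beside 6.25% called lower over all genes tested. Timp1, an inhibitor of matrix metalloproteinases, ranged from 58.9 through 180 to 409 CPM in Control and from 17.2 through 41.8 to 73.3 CPM in Tyrphostin. Timp1 fell by 2.05 ± 0.38 (SE) on the log2 scale (edgeR adjusted p = 0.00151). Angptl4, a secreted inhibitor of lipoprotein lipase that also acts on vessels, ranged from 17.5 through 37.7 to 73.9 CPM in Control and from 9.37 through 13.2 to 25.3 CPM in Tyrphostin. Angptl4 fell by 1.45 ± 0.32 (SE) on the log2 scale (edgeR adjusted p = 0.00484). In both genes 5 of 6 Tyrphostin libraries lay below every Control library. Fgfr1, a receptor of fibroblast growth factors, fell by 0.62 ± 0.20 (SE) on the log2 scale (edgeR adjusted p = 0.0470), but it remained called in 3 of the 17 fits that left out 1 library (adjusted p from 0.0275 to 0.125). Its adjusted p was 0.0922 with the Control libraries summed by set, and 4 of the 14 other alternatives kept the call.

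**Figure D4:**
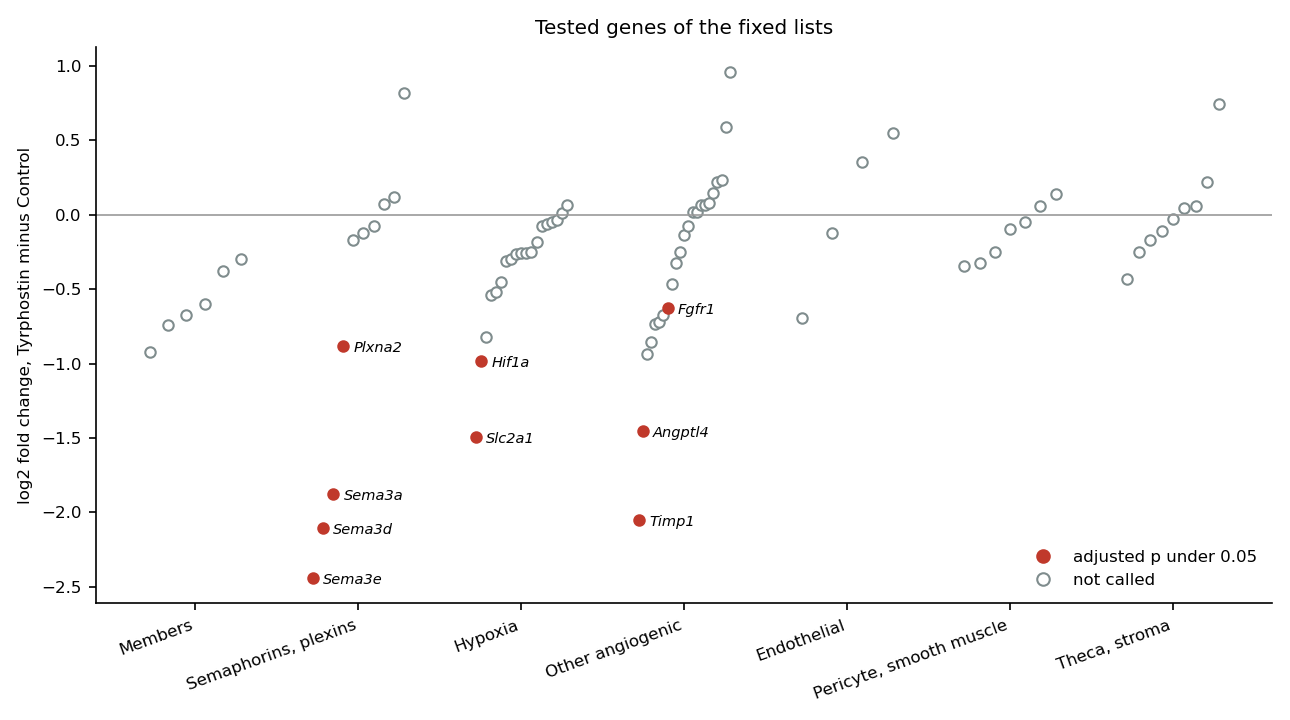
Log2 fold changes (Tyrphostin minus Control, batch as a term) of the tested genes in 7 gene lists, 1 point per gene, with genes at an adjusted p under 0.05 filled and named. The 6 tested members lie between -0.93 and -0.30 and none is filled, and the 9 filled genes are all lower in Tyrphostin.

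**Figure D5:**
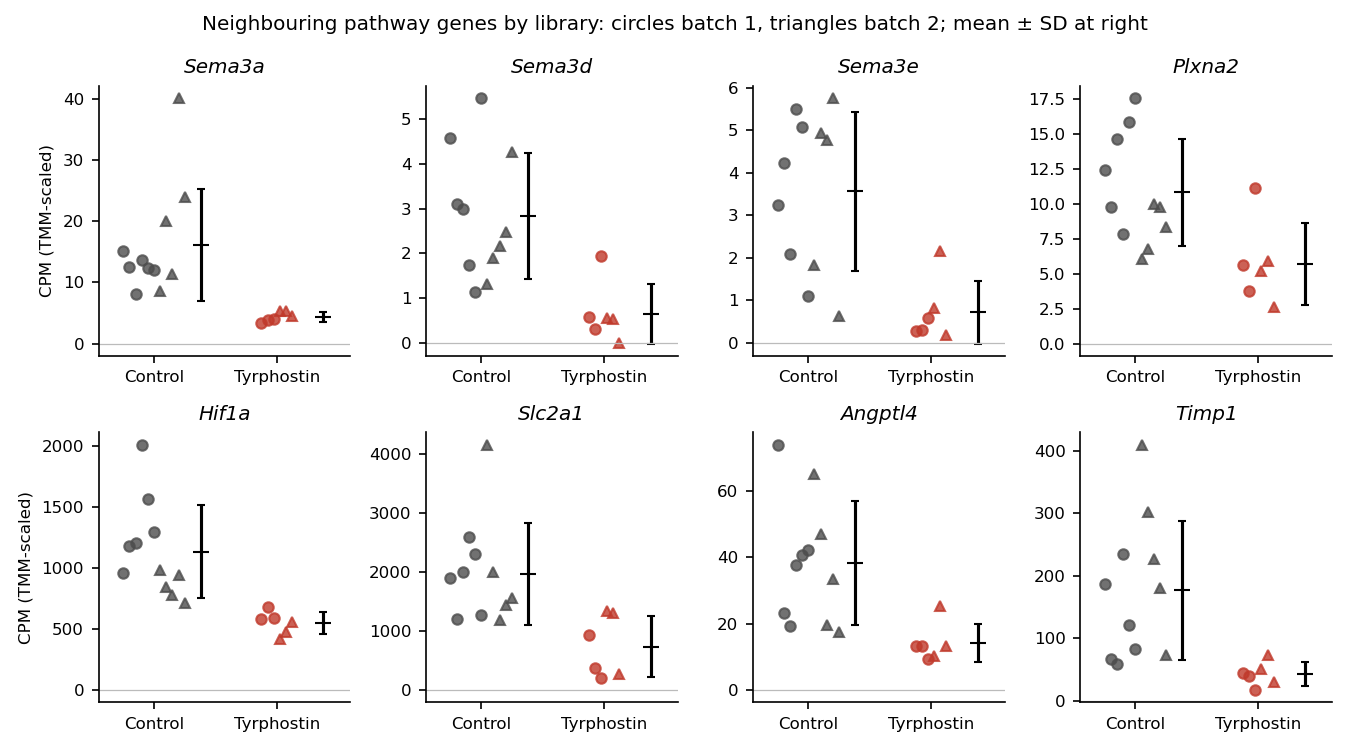
CPM of 8 called genes of the semaphorin, hypoxia and angiogenic lists in every library (linear axes that differ between panels), in Control (grey, n = 11) and Tyrphostin (red, n = 6). Circles are batch 1, triangles batch 2, and the bars are the mean ± SD. Sema3a (3.30 to 5.39 CPM in Tyrphostin) and Hif1a (421 to 679 CPM) show no overlap between groups.

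The labelled tissue was checked on its markers. The 13 granulosa and cumulus markers summed to between 92130 and 132475 CPM in Control and between 79235 and 119698 CPM in Tyrphostin, and 10 oocyte markers to between 23.7 and 284 CPM over both groups. Inha, Gja1 and Inhba made up most of the granulosa and cumulus sum, with 3517773, 2289481 and 1908559 counts over the 17 libraries. Foxl2 (77 counts) and Amh (10 counts, with 0 in 12 libraries) did not pass the filter. Of the 11 granulosa and cumulus markers tested, 4 fell and 3 rose. Over all genes tested, 6.25% were called lower and 10.6% in either direction. The 4 markers that fell are genes of cumulus expansion: Ptgs2 (-2.40 ± 0.24), Has2 (-2.31 ± 0.30), Tnfaip6 (-2.24 ± 0.24) and Ptx3 (-3.23 ± 0.43, log2 fold change ± SE). Those that rose are Cyp19a1, the aromatase (2.35 ± 0.22), Nr5a2 (2.18 ± 0.16) and Fshr (0.83 ± 0.25, edgeR adjusted p = 0.0344). The Fshr call was lost in 6 of the 17 fits that left out 1 library: without Control 1 (adjusted p = 0.0539), Control 3 (0.0559), Control 10 (0.0533), Tyrphostin 1 (0.187), Tyrphostin 5 (0.0529) or Tyrphostin 6 (0.101). It was also lost without a batch term (0.0645) and with the Control libraries summed by set (0.0824). The other 6 of these 7 genes had edgeR adjusted p-values of at most 5.83e-05. None of 8 oocyte and 7 pericyte and smooth muscle markers tested was called. The 8 oocyte markers had a median log2 fold change of 0.40, with 2 negative values. DESeq2 called 1 oocyte marker higher, as did the fit without Tyrphostin 4.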

How the data were processed

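RNA-seq was done on 17 libraries of pooled eIVFG follicles. Per the labels' protocols, RNA was bound to SPRI beads and amplified with Smart-Seq2, which has no molecular identifiers. The authors deposited raw counts per gene symbol. The submitters' processing notes name STAR, HTSeq and GRCm38, and the annotation and strand setting are not given in the sources used here, so overlapping or antisense genes cannot be separated.

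Of 25198 rows, 3576 held no count. Counts were tested in edgeR 4.0.16 (R 4.3.3) with filterByExpr on treatment, TMM, robust glmQLFit and glmQLFTest. P-values were adjusted over all genes tested (Benjamini-Hochberg, threshold 0.05), and SE is the size of the log2 fold change over the root of F. The code was tested on simulated counts. All 31 replicate pairs differed beyond counting noise, with chi-square values 12.7 to 93.1 times their degrees of freedom. Positions and exon lengths are from GENCODE M21. Members and lists were chosen with earlier results of these data known. Named genes are all members and the genes called in 10 further lists (157 genes in all). Genes most like a called member would have been named, but no member was called over both batches. Alternatives were other scalings, DESeq2 1.42.0, limma-voom (limma 3.58.1), other filters and covariates, summed Control sets, a replicate block, a threshold of 0.01 and omission of each library. A fit without Control 7 and Tyrphostin 5 was added after seeing the data.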

Additional observations from a re-analysis of the deposited data

Results flagged for a closer look

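In 78 groups of libraries (26 genes in the Tyrphostin group and the Control groups of batch 1 and batch 2), 7 held 1 library far from the rest by Dixon's 95% criterion, where chance gives about 1 in 20 groups (3.9 of them). Nrp1 stood at 28.3 CPM in Tyrphostin 5, against 3.32 to 11.7 CPM in the other Tyrphostin libraries. The same library held the highest Sema3e, 2.16 CPM against 0.187 to 0.823 CPM, and the highest Angptl4, 25.3 CPM against 9.37 to 13.4 CPM. Sema3d was 1.95 CPM in Tyrphostin 3 against 0 to 0.574 CPM in the other 5. Slc2a1 was 4156 CPM in Control 7, against 1186 to 2000 CPM in the other Control libraries of batch 2. Fshr was 6.33 CPM in Control 10, against 9.56 to 10.8 CPM in the other Control libraries of that batch. Tnfaip6 was 13109 CPM in Control 4, against 6334 to 8057 CPM in the other Control libraries of batch 1.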

How the results depend on the processing

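In the treatment comparison the 6 tested members kept a negative log2 fold change under every alternative run. Total-count scaling moved the median of all genes by 0.145. The number of members called was 0, but 2 (Nrp1 and Nrp2) without Control 7 and Tyrphostin 5, and 0 to 2 when 1 library was left out, with 2 only without Tyrphostin 5. Genes called numbered 619 without the batch term, 678 with log10 of the total count added, 478 at an adjusted p under 0.01, and 708 to 1314 with 1 library left out. Whether replicate numbers pair the libraries was not settled. Correlations of deviations were 0.469, 0.311 and 0.377 for numbers 1, 2 and 3, where both libraries are in batch 1. They ran from -0.133 to 0.013 for numbers 4 to 6, whose libraries are in different batches. Pairing was thus not tested apart from a shared batch. Fits with a replicate block used numbers 1 to 6 only, so every Control library in them was from batch 1. For numbers 4 to 6, treatment and batch cannot be told apart there. A replicate block in place of batch called 1678 genes, a count that mixes batch with treatment. A replicate block with batch called 624 genes and 1 member, Nrp1. Its treatment term rests on numbers 1 to 3, all in batch 1. Of the semaphorins and plexins, the block with batch called 1 lower, and the block in place of batch called 1 higher. The block in place of batch also called 2 oocyte markers higher, and each block fit called 1 endothelial marker lower. In batch 1, 394 to 687 genes were called with 1 library left out. In batch 2 the count of 61 became 303 with DESeq2, 222 without a filter, and 11 (without Tyrphostin 6) to 221 (without Control 7) with 1 library left out. Without a filter the interaction called 79 genes. Between Control batches, 660 to 1063 genes were called with 1 library left out. With 1 library left out, batch 2 fold changes ranged from -0.85 to 0.14 for Vegfa, -0.26 to 0.53 for Angpt2, -1.42 to 0.18 for Flt1 and -1.04 to 0.21 for Nrp1, lowest without Tyrphostin 5 and highest without Tyrphostin 6. The Kdr interaction was -0.00037 with total counts. Among Control libraries, Nrp2 was -0.0053 with RLE, -0.012 with upper-quartile scaling, -0.0056 with DESeq2 and -0.21 to 0.14 with 1 left out, and Kdr -0.10 to 0.13. The cause of these shifts was not tested. Plxna2 and Slc2a1 were called in 9 and 12 of 14 other alternatives. Counts of 0 to 48 per library for every member but the neuropilins limit what can be detected.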

Other observations

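The 3 semaphorin genes that fell lie close together on chromosome 5, between chr5:12383385 and chr5:14256689 (GRCm38), a span of 1.873 Mb. Their order is Sema3d, Sema3a and Sema3e, and no other tested gene lies among them. Further along, Cacna2d1 (chr5:15934691-16374511) had a log2 fold change of 0.01 (edgeR adjusted p = 0.984) and Sema3c (chr5:17574281-17730268) one of -0.12 (adjusted p = 0.811). This position was looked up after the values were seen and was not tested. Sema3d and Sema3e passed the filter on their Control counts, so the shared direction of the 3 genes is no test.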
